A study of Macaca fascicularis with 6 samples.

Results

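The genes described here encode subunits of respiratory complex I, the NADH:ubiquinone oxidoreductase of the inner mitochondrial membrane. They were taken as every gene whose name in the array design, or annotated symbol where the design gave none, was NDUFA, NDUFB, NDUFC, NDUFS or NDUFV followed by digits, or NDUFAB1. This gave 36 of the 18122 named genes, on 63 of the array's 52706 probe sets (control probes not counted). The rule reads names, and each gene was represented by the probe set with its highest signal, so that a direction given for a gene below is that of its brightest probe set.

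Complex I takes electrons from NADH, passes them through a flavin and a chain of iron-sulfur clusters to ubiquinone, and pumps protons that drive ATP synthesis. Its peripheral arm reaches into the matrix and holds the flavin, the clusters and the ubiquinone site. Its membrane arm holds the proton pumps, which are encoded by mitochondrial DNA, surrounded by accessory subunits made from nuclear genes. Ventricular muscle is densely packed with mitochondria and draws most of its ATP from this chain.

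Transmural specimens of the left ventricular free wall came from male cynomolgus monkeys 4 to 6 years old, and each animal's RNA was hybridized to a single Affymetrix Rhesus Macaque Genome Array. The block group comprised animals 2 and 8, whose atrioventricular node had been ablated 8 months earlier. The intact group comprised animals 11, 12, 13 and 14, which had no operation. The microarray comparison addressed how gene expression is remodelled in the chronically bradycardic ventricle. Both block animals had been challenged repeatedly with dl-sotalol, which blocks β-adrenoceptors and delays repolarization, and had received moxifloxacin, an antibiotic with a similar effect on repolarization. Both had developed torsade de pointes, a ventricular tachyarrhythmia, repeatedly. Hearts of operated animals with fewer episodes were not analysed here. The block, the drugs and the arrhythmia cannot be told apart on these arrays. In homogenized muscle, fewer cells of a type and less RNA per cell cannot be told apart either, and the probes were designed on rhesus sequence.

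The 2% trimmed mean of the deposited signals was 54.6 and 73.5 in the block hearts, and between 75.1 and 88.2 in the intact hearts. Each array was multiplied to a common value of 76.1, and the signals below are on that scale. The 3' to 5' signal ratio of GAPDH, a measure of RNA integrity and labelling, was 5.05 in animal 2 and 3.05 in animal 8, against 2.17 to 2.65 in the intact hearts. This difference had the smallest p that 15 splits of the arrays allow (exact permutation test, 2-sided, p = 0.0667). The same ratio of ACTB overlapped, at 11.6 and 8.98 in animals 2 and 8, against 7.85 to 10.9 in the intact hearts (exact permutation test, 2-sided, p = 0.333). Cardiomyocyte markers were measured for 12 of 13 listed genes, and their summed signal was 105878 to 130521 in block hearts and 97588 to 112175 in intact hearts. The part of RNA quality in the results below was not tested.

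All 36 genes were called Present, that is, detected above mismatch background, on all 6 arrays. Of their 63 probe sets, 52 were Present on at least 2 arrays and were tested. With atrioventricular block 10 of the genes were higher and 26 lower, with a median log2 fold change of -0.13, which is a median fold of 0.912. Folds ran from 0.717 for NDUFA2 to 1.21 for the brightest probe set of NDUFA9, whose second probe set ran the other way. None of the 36 passed limma's test with p-values adjusted by Benjamini-Hochberg across all 22577 tested probe sets, where 0.00443% were called higher and 0.0177% lower, and the lowest adjusted p of a subunit was 0.576. At an unadjusted p under 0.05 in the same fit, 0 genes were higher and 1 was lower (NDUFAB1), against 3.62% of all probe sets higher and 4.62% lower. Of all probe sets tested 50.4% had a log2 fold change below 0, against 72.2% of the subunit genes. Many of all probe sets tested are dimmer than the subunits. Among the 1362 tested with a mean signal of 1000 or more (mean on the log2 scale), 41.7% were below 0, with a median of 0.05.

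The 95% intervals say how large a change these 6 arrays leave room for. Over the 36 genes their bounds ran from a fold of 0.473 to a fold of 1.73, and only that of NDUFAB1 left out a fold of 1. The typical interval reached 0.42 on the log2 scale to either side (median). Among the intact hearts the coefficient of variation of a subunit's signal was 4.49% to 31.97%, with a median of 11.9%.

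**Figure D1:**
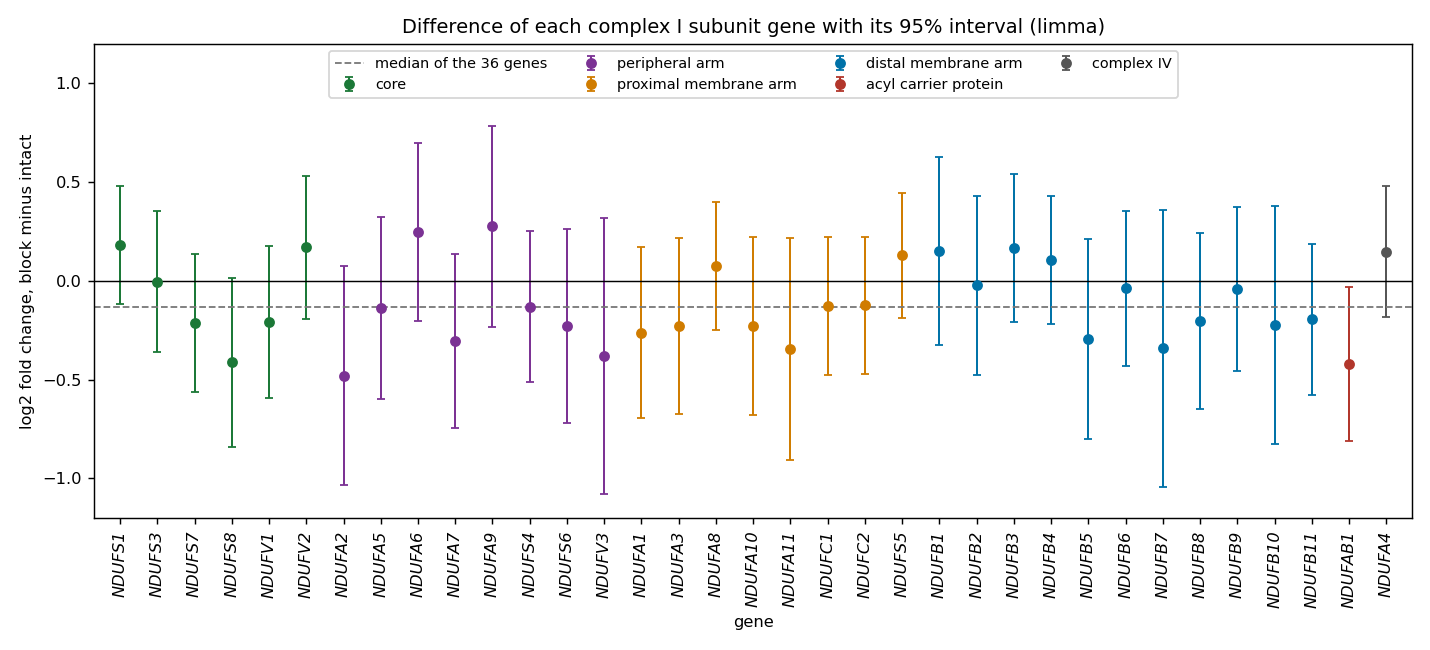
Log2 fold change, block (n = 2) minus intact (n = 4), of 35 of the 36 genes on the vertical axis, with its 95% interval from limma, coloured by position in the enzyme; the dashed line is the median of the 36 genes. The median lies at -0.13 and every interval drawn except that of NDUFAB1 crosses 0.

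NDUFAB1 had the lowest p of the 36. It encodes the mitochondrial acyl carrier protein, which carries growing acyl chains in mitochondrial fatty acid synthesis and sits in complex I bound to accessory subunits of the LYR family. Its signal was 699 and 638 in block animals 2 and 8, against 940, 741, 1024 and 898 in intact animals 11, 12, 13 and 14. Both block hearts were below every intact heart. The fold was 0.747 (95% interval 0.569 to 0.980), with an adjusted p of 0.576 in limma. Its probe set, the sole one for this gene, matched 2 places of the rhesus build Mmul_051212, the first listed being chr15:69869583-69870034. Which of the 2 places holds the functional gene was not determined. Among the brightest probe sets of the 36 genes, 8 matched 2 or more places of this build and 2 matched none (NDUFV3 and NDUFS6).

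The core subunits are those shared with the bacterial enzyme, and 7 of them are encoded in the nucleus. Of these 2 were higher and 5 lower, with a median log2 fold change of -0.06. NDUFS8, which holds a pair of iron-sulfur clusters on the way to ubiquinone, differed most. Its signal was 1143 and 1213 in block animals 2 and 8, against 1701, 1250, 1495 and 1902 in intact animals 11 to 14. Here too the groups did not overlap, although intact animal 12 lay close to the block hearts. The fold was 0.751 (95% interval 0.559 to 1.01), with an adjusted p of 0.618 in limma. The probe set lies at chr14:6684554-6688535 of the same build.

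NDUFS1, the largest core subunit, carries iron-sulfur clusters of the peripheral arm. It stood on the other side by its brightest probe set, although a dimmer one described below was lower. The brightest had signals of 5733 and 5998 in block animals 2 and 8, against 5341, 5347, 5163 and 4851 in intact animals 11 to 14. Both block hearts were above every intact heart, and the intact hearts varied less for this gene than for any other subunit (coefficient of variation 4.49%). The fold was 1.13 (95% interval 0.921 to 1.40), with an adjusted p of 0.752 in limma. Its probe set lies at chr12:70002295-70005421.

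The other core subunits did not separate the groups. NDUFV1, which binds NADH and the flavin, had signals of 881 and 670 in block animals 2 and 8, against 881, 988, 854 and 838 in intact animals 11 to 14. NDUFV2, its iron-sulfur partner, had 6520 and 4821 in animals 2 and 8, against 5265, 4685, 5003 and 4999 in the intact hearts. For both genes animal 2 was at or above the middle of the intact hearts and animal 8 was lower, so that NDUFV1 averaged a fold of 0.865 and NDUFV2 a fold of 1.12. NDUFS7, which holds the last cluster before ubiquinone, had 3206 and 2777 in animals 2 and 8, against 3812, 3074, 3716 and 3286 in the intact hearts. NDUFS3, which links the clusters to the region of the ubiquinone site, had 3672 and 3240 in animals 2 and 8, against 4085, 3354, 3282 and 3193 in the intact hearts. Its fold was 0.997, the smallest difference among the core subunits. The lowest adjusted p of these genes was 0.752 in limma.

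**Figure D2:**
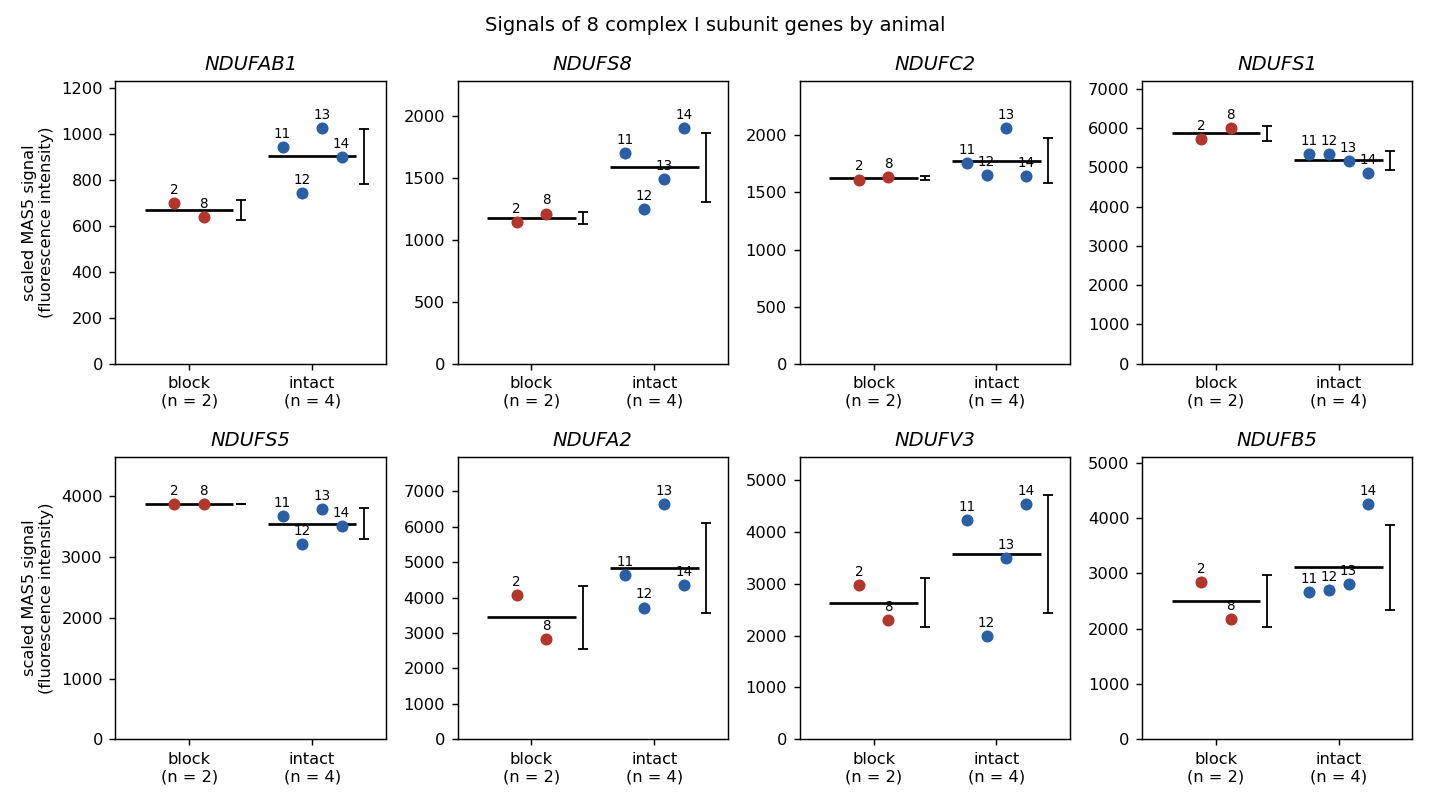
Scaled MAS5 signal (fluorescence intensity, linear axis from 0) of 8 subunit genes in each heart, with the animal's number above its point, block on the left and intact on the right; lines are group means and bars beside them are 1 SD. NDUFAB1, NDUFS8 and NDUFC2 lay below all intact hearts in both block hearts, NDUFS1 and NDUFS5 above, and the remaining 3 overlapped.

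The accessory subunits of the peripheral arm comprised 8 genes, 2 higher and 6 lower, with a median log2 fold change of -0.18. NDUFA2, which has a thioredoxin-like fold, had the largest difference of all 36. Its signal was 4068 and 2818 in block animals 2 and 8, against 4628, 3718, 6641 and 4349 in intact animals 11 to 14. Animal 2 lay within the intact range and animal 8 below it, so the groups overlapped. The fold was 0.717 (95% interval 0.488 to 1.05, adjusted p = 0.651 in limma). The NDUFA2 probe set matched 2 places of the rhesus build. NDUFV3, a small subunit attached to the flavin-bearing module, had 2966 and 2303 in the block hearts, against 4232, 1999, 3500 and 4538 in the intact hearts. Intact animal 12 was the lowest of all 6, and the highest intact signal was 2.27 times the lowest.

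NDUFA7 had 2203 and 1710 in block animals 2 and 8, against 2790, 1896, 2603 and 2398 in intact animals 11 to 14 (fold 0.810, adjusted p = 0.716 in limma). The 2 probe sets higher in this arm were those of NDUFA9 and NDUFA6. NDUFA9, which binds a nucleotide at the foot of the arm, had 2025 and 1752 in animals 2 and 8, against 2098, 1669, 1407 and 1188 in the intact hearts. NDUFA6, a member of the LYR family to which the acyl carrier protein binds, had 6330 and 4723, against 5857, 4612, 4244 and 3938. In both, intact animal 11 lay above at least 1 block heart, and the folds were 1.21 and 1.19. The second tested probe set of NDUFA9 had a log2 fold change of -0.29, so its direction depends on the probe set. NDUFS4, in which mutations cause Leigh syndrome in man, NDUFS6, a zinc-binding subunit, and NDUFA5 had folds of 0.914, 0.853 and 0.910, with overlapping groups. The NDUFA5 probe set matched the build at an identity of 78.21%, and its annotated symbol is that of another gene (IFIT2).

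On the proximal membrane arm, which joins the peripheral arm, 8 genes were measured, 2 higher and 6 lower, with a median log2 fold change of -0.18. Both non-overlapping genes of this region moved little. NDUFC2 had 1613 and 1638 in block animals 2 and 8, against 1756, 1652, 2063 and 1645 in intact animals 11 to 14. Animal 8 was nearly level with intact animals 12 and 14, and the fold was 0.918 (adjusted p = 0.863 in limma). NDUFS5, on the face toward the intermembrane space, had 3862 and 3868, against 3666, 3202, 3787 and 3500. Both block hearts were above all intact hearts, with a fold of 1.09 (adjusted p = 0.831 in limma).

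In the remaining proximal genes the block hearts differed from each other. NDUFA1, which is needed for the membrane arm to assemble, had 8446 and 5615 in block animals 2 and 8, against 9260, 7301, 7953 and 8690 in intact animals 11 to 14. NDUFA10, related to nucleoside kinases, had 1026 and 650, against 1014, 952, 993 and 873. NDUFA3 had 4924 and 3448, against 5462, 4168, 5469 and 4374. In these 3 genes animal 2 was within or above the intact range and animal 8 below it, with folds of 0.833, 0.854 and 0.853. NDUFA11, which lies where complex I meets complex III in the supercomplex, behaved otherwise, with 1174 and 1125 in the block hearts, against 1145, 1134, 1833 and 1905 in the intact hearts. The intact hearts split into a low and a high pair, and the block hearts lay with the low pair. NDUFC1 had a fold of 0.916 and NDUFA8 a fold of 1.05.

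The distal membrane arm was represented by 11 genes, 3 higher and 8 lower, with a median log2 fold change of -0.04. No gene of this group separated the block hearts from the intact hearts. NDUFB7, on the intermembrane-space face, had 653 and 641 in block animals 2 and 8, against 1036, 858, 1075 and 473 in intact animals 11 to 14. Intact animal 14 was below the block hearts and the other 3 intact hearts above them, and the coefficient of variation of the intact hearts was the highest of the 36 genes, at 31.97%. NDUFB5 had 2841 and 2174, against 2659, 2705, 2811 and 4255, where intact animal 14 again stood apart, this time on the high side. Its fold was 0.816 (95% interval 0.575 to 1.16), and the annotated symbol of this probe set is that of an ATP synthase gene (ATP5G1) although its design name is NDUFB5. NDUFB9, a LYR protein that binds a further copy of the acyl carrier protein, had a fold of 0.972, NDUFB8 a fold of 0.869, NDUFB10 a fold of 0.855 and NDUFB11 a fold of 0.873. NDUFB10 was dim, with signals between 61.4 and 109 on its brightest probe set. The folds of NDUFB2 and NDUFB6 were 0.984 and 0.974. The 3 higher genes were NDUFB1, NDUFB3 and NDUFB4, with folds of 1.11, 1.12 and 1.08. For NDUFB1 the signals were 243 to 385, and another probe set drawn from the same design sequence was Present on 1 array.

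NDUFA4 was first isolated with complex I and has since been assigned to complex IV. Its signal was 9606 and 8302 in block animals 2 and 8, against 8800, 7409, 8477 and 7636 in intact animals 11 to 14, a fold of 1.11. Without it the other 35 genes had a median log2 fold change of -0.14, with 9 higher and 26 lower. The array also carries NDUFA12 and NDUFA13, accessory subunits listed under the older names DAP13 and GRIM19 and therefore outside the rule. Their log2 fold changes were -0.06 and -0.13.

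Across all 36 genes, 3 lay below every intact heart in both block hearts (NDUFAB1, NDUFS8 and NDUFC2) and 2 above (NDUFS1 and NDUFS5), while 31 overlapped. Of all probe sets tested 9.48% lay below in this way and 8.61% above, so that neither count stood out from the background. The nearest hearts of the groups were close in all 5 genes. The nearest intact heart was 5.96% above the higher block heart for NDUFAB1, 3.05% for NDUFS8 and 0.432% for NDUFC2, and the lower block heart was 7.23% above the nearest intact heart for NDUFS1 and 1.99% for NDUFS5.

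The 2 block hearts did not show the same picture. Animal 8 had a lower signal than animal 2 for 30 of the 36 genes, against 51.0% of all probe sets tested. It was below the mean of the intact hearts for 29 genes and below all 4 of them for 18, or 50.0%, where 22.9% of all probe sets were. Animal 2 was above the intact mean for 20 genes and below it for 16, and it lay below all intact hearts for 3 genes and above all of them for 11, where 23.5% and 23.4% of all probe sets did. The median deviation of the 36 genes from the intact mean was 0.03 in animal 2 and -0.28 in animal 8 on the log2 scale, against 0.11, -0.13, 0.05 and -0.06 in intact animals 11, 12, 13 and 14. With animal 8 left out the median log2 fold change was 0.03, and with animal 2 left out it was -0.28, so the direction of the group median rested on animal 8. Both block hearts were on the lower side of the intact mean for 16 genes (44.4%, against 29.6% of all probe sets) and on the higher side for 7 (19.4%, against 30.9%).

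**Figure D3:**
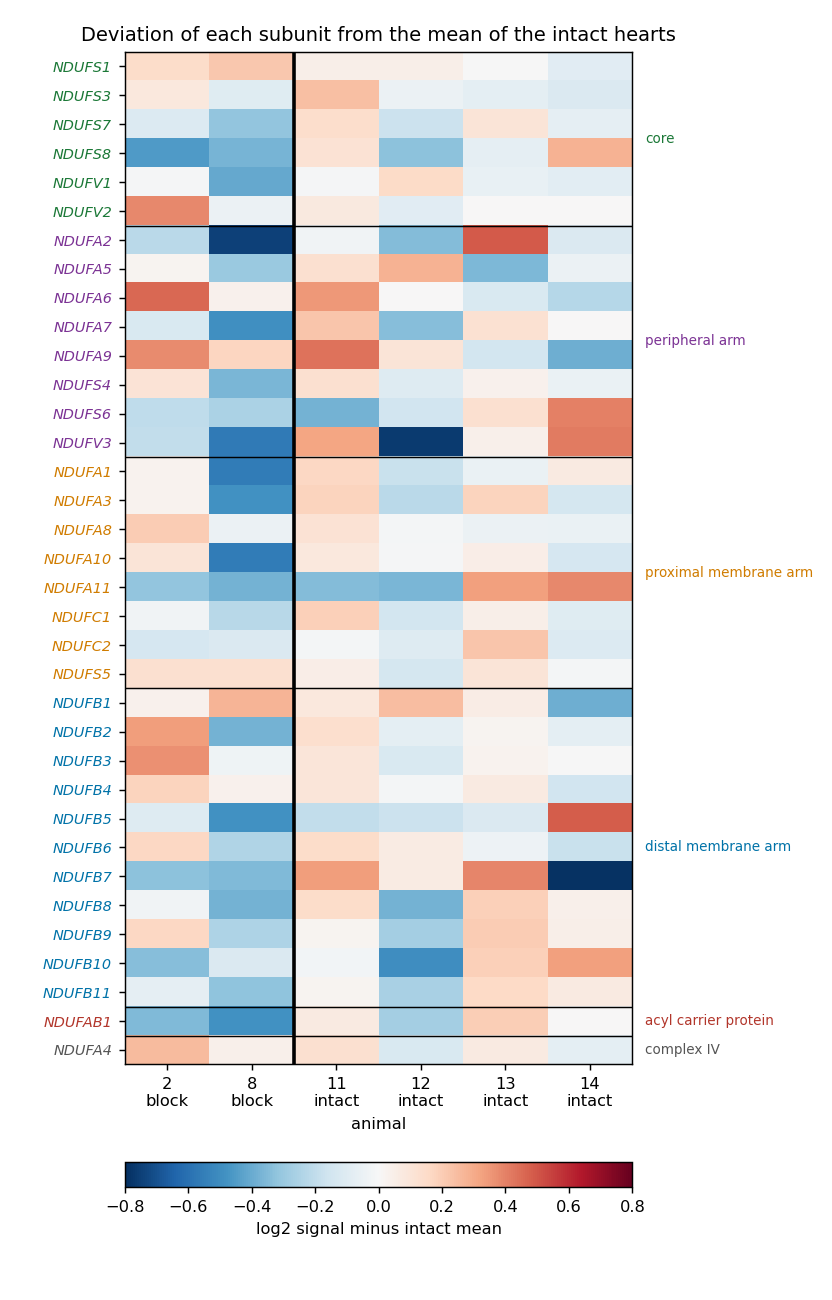
Each row is a gene (35 of the 36 are drawn), grouped by position in the enzyme, and each column 1 heart, block on the left of the thick line and intact on the right; colour is the log2 signal minus the mean of the intact hearts (blue lower, red higher). The column of animal 8 is blue for 28 of the genes drawn and that of animal 2 for 16, while the intact columns differ among themselves.

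The intact hearts had an order of their own. Animal 12 was the lowest of the 4 for 20 of the 36 genes and animal 11 the highest for 16, against 23.1% and 24.9% of all probe sets. The standard deviation of the intact hearts' median deviations was 0.11 on the log2 scale.

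Macrophage markers also set animal 8 apart. They were measured for 8 of 9 listed genes and had a summed signal of 690 in animal 2 and 1320 in animal 8, against 516 to 780 in the intact hearts. All 8 had a log2 fold change above 0, and their median deviation was 0.14 in animal 2 and 0.98 in animal 8. Fibroblast markers, measured for all 9 listed genes, summed to 14230 in animal 2 and 20527 in animal 8, against 12004 to 22137 in the intact hearts, so that animal 8 lay within the intact range. The part of these cells in the low subunit signals of animal 8 was not tested. The GAPDH ratio lay above all intact hearts in both block hearts (5.05 in animal 2 and 3.05 in animal 8, against 2.17 to 2.65). The part of RNA quality in these signals was not tested either.

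Where a gene had several probe sets they did not always give the same answer. Among the 12 genes with 2 or more tested probe sets, 5 had a second probe set of the opposite sign and 5 had a gap of over 0.5 on the log2 scale (NDUFA10, NDUFA9, NDUFB4, NDUFS1 and NDUFS8). NDUFS8 had 3. Its second probe set, drawn from the same design sequence and detected on all arrays, had 655 and 525 in block animals 2 and 8, against 998, 686, 750 and 969 in intact animals 11 to 14, again with both block hearts lowest (log2 fold change -0.52, adjusted p = 0.559 in limma). The third, with signals between 4.63 and 18.4, had a log2 fold change of 0.46. For NDUFS1 the second tested probe set ran against the brightest one. It had 87.6 and 85.3 in the block hearts, against 110, 104, 112 and 106 in the intact hearts, all block values below all intact values (log2 fold change -0.32). NDUFA9 likewise had a second, dimmer probe set that was lower. For NDUFS1 and NDUFA9 the directions and counts given here are therefore those of their brightest probe sets, not of the genes.

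The subunits of complexes II to V were compared to see whether complex I stood apart from the rest of the respiratory chain. Of 43 listed genes 41 were tested, 21 higher and 20 lower, with a median log2 fold change of 0.02, and none passed the adjusted test in limma. Their median deviation was 0.15 in animal 2 and -0.16 in animal 8, against 0.13, -0.11, 0.05 and -0.08 in intact animals 11 to 14. The difference between animals 2 and 8, and the order of the intact hearts, were thus similar in size to those of complex I. In each block heart complex I lay 0.12 on the log2 scale below complexes II to V, whereas in the intact hearts the gap was between -0.02 and 0.02. Deviations were taken from the intact hearts' own mean, which holds the intact gaps near 0. The median log2 fold change of complex I minus that of complexes II to V was -0.16. That difference was -0.07 with probe sets averaged per gene and -0.09 with annotated symbols. The 2 lists differ in length and signal, and this gap was not tested. Within the chain, the median log2 fold change was -0.08 for complex II, 0.11 for complex III, 0.00 for complex IV and 0.02 for complex V.

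The complex I subunits made by the mitochondrion itself were represented by 4 of 7 genes, and the intact hearts alone differed several-fold in them. MT-ND5 had 1776 and 6787 in block animals 2 and 8, against 1653, 7347, 964 and 5476 in intact animals 11 to 14. MT-ND2 had 799 and 801, against 1572, 1924, 335 and 744. Both overlapped widely, and the largest log2 fold change of the 4, -1.72 for MT-ND4L, belonged to a probe set Present on 2 arrays (adjusted p = 0.662 in limma). MT-ND4L had 109 and 91.0 in block animals 2 and 8, against 87.7, 154, 688 and 1245 in intact animals 11 to 14. Its groups overlapped too, and its high signals were those of intact animals 13 and 14.

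Assembly factors build the enzyme without staying in it, and 7 of 18 listed were on the array and tested. Of these 5 were higher and 2 lower, with a median log2 fold change of 0.03. NDUFAF1, which helps to assemble the membrane arm, had 1085 and 695 in block animals 2 and 8, against 801, 648, 639 and 502 in intact animals 11 to 14 (fold 1.36, adjusted p = 0.663 in limma). Animal 2 was the highest of all 6 and animal 8 lay within the intact range. NDUFAF4 had 550 and 570, against 611, 604, 586 and 593. It was the sole assembly factor with both block hearts below all intact hearts, at a log2 fold change of -0.10.

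Regulators of mitochondrial biogenesis, which control the nuclear genes of the respiratory chain, were mostly low in both block hearts. Of 18 listed genes 13 were tested, 1 higher and 12 lower, with a median log2 fold change of -0.39, and none passed after adjustment (lowest adjusted p = 0.477 in limma). At an unadjusted p under 0.05 in limma, 2 were lower, where 4.62% of all probe sets were. In both block hearts 6 lay below all intact hearts, where 9.48% of all probe sets did. ESRRG, an orphan nuclear receptor that drives oxidative metabolism in the heart, had 503 and 429 in block animals 2 and 8, against 672, 661, 632 and 615 in intact animals 11 to 14 (fold 0.721). GABPA, the DNA-binding subunit of a factor that acts on respiratory chain promoters, had 195 and 168, against 236, 275, 221 and 235 (fold 0.752). The intact hearts were close to each other in both genes and the block hearts below them.

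PPARGC1A, the coactivator that works with these factors, had 436 and 395 in block animals 2 and 8, against 566, 420, 633 and 1038 in intact animals 11 to 14. Animal 2 overlapped with intact animal 12, and the fold was 0.661. TFAM, which packages and transcribes mitochondrial DNA, had 257 and 293, against 323, 345, 308 and 330 (fold 0.841). PPARGC1B, PPRC1 and SIRT1, which also act with or on this coactivator family, completed the 6 non-overlapping genes, with log2 fold changes of -0.47, -0.44 and -0.35. PPRC1 was dim, with signals between 29.0 and 46.3. ESRRB had the largest log2 fold change of the 13, -0.84, but was also dim (17.0 to 54.9) and its groups overlapped. The sole higher gene was TFB1M, at 0.23. The median deviation of the 13 genes was -0.34 in animal 2 and -0.39 in animal 8, against 0.06, 0.01, -0.08 and 0.02 in the intact hearts. Animal 2, whose complex I median was 0.03, was therefore about as low as animal 8 in these regulators.

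Among erythroid and smooth muscle markers, some single genes lay above all intact hearts in both block hearts, while the summed signals of both lists overlapped. Erythroid markers, measured for 4 of 5 listed genes, summed to 22492 in animal 2 and 16102 in animal 8, against 5692 to 16227 in the intact hearts, and all 4 had a log2 fold change above 0. HBB, the beta chain of hemoglobin, had 20163 and 14634 in the block hearts, against 14543, 12164, 5477 and 10057 in intact animals 11 to 14, so that animal 8 was barely above animal 11. Smooth muscle and pericyte markers, tested for 6 of 8 listed genes, were 3 higher and 3 lower, and summed to 5636 and 6387 in the block hearts, against 4784 to 6263 in the intact hearts. Of these ACTA2 and TAGLN, smooth muscle contractile genes, lay above all intact hearts in both block hearts, as did 8.61% of all probe sets. The 3 lower genes were KCNJ8, MYH11 and PDGFRB, with log2 fold changes of -0.77, -0.40 and -0.10 and overlapping groups. That of KCNJ8 was the largest change of this list in either direction. None of these genes passed the adjusted test in limma. The part of these cells and of RNA quality in the signals of the regulators was not tested.

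**Figure D4:**
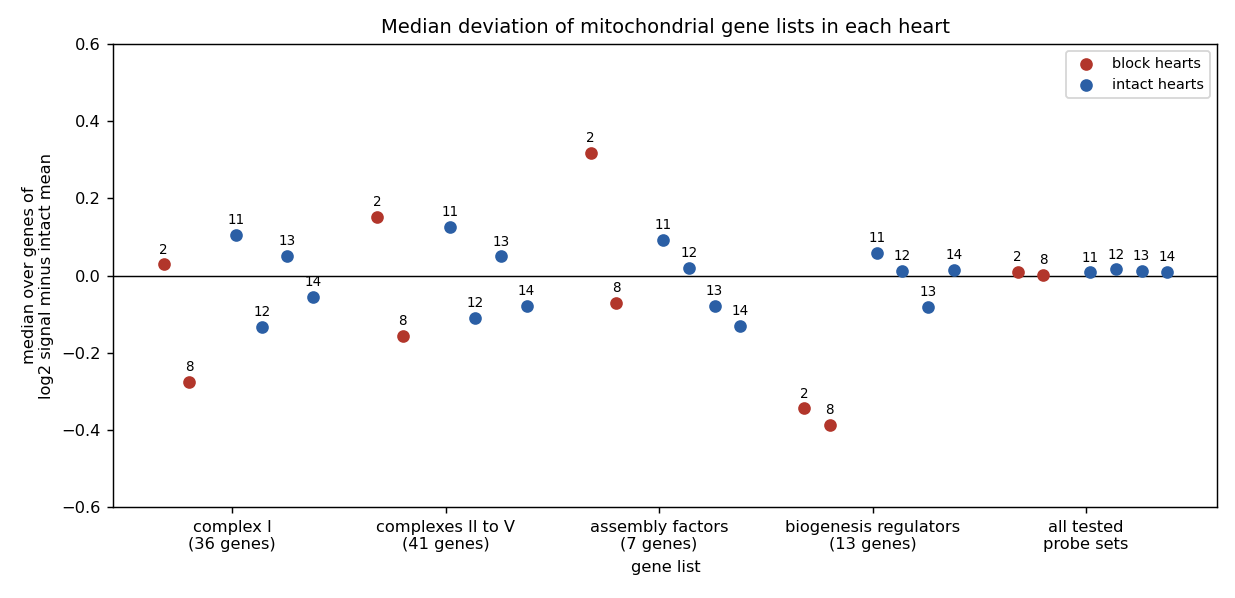
Median over the genes of a list of the log2 signal minus the intact mean (vertical axis), 1 point per heart with the animal's number, block hearts left of intact hearts in each list. For complex I and complexes II to V animal 8 is the lowest heart and animal 2 lies among the intact hearts or just above them, while for the biogenesis regulators both block hearts lie below all 4 intact hearts.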

How the data were processed

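The authors labelled 100 ng of total RNA per heart from its 3' end and computed MAS5 signals in Expression Console, gathered in GeneSpring GX (versions not printed here). The deposited table holds, per probe set and array, a linear signal (fluorescence intensity), a detection call, a detection p-value and a normalized log2 value. The authors' log2 values were centred on the median of each array and then, for each probe set, on the median of the intact hearts, which was checked by rebuilding them (largest difference 2.67e-05). A second deposited table repeats the intensity values with 1 more row. The 6 per-sample columns that count probe pairs were left aside.

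Each array was multiplied to the same 2% trimmed mean before taking log2. The 22577 probe sets Present on at least 2 of 6 arrays were tested, 158 control probe sets left out, with limma 3.58.1 in R 4.3.3 (lmFit, eBayes with a variance trend, 2-sided), Benjamini-Hochberg adjustment and a threshold of 0.05, block minus intact. Animals were the replicates. Other steps used pandas 2.3.3, scipy 1.17.1 and matplotlib 3.10.9 in Python 3.11.15, and the fit was tested on simulated data. Design names gave 62 of the 63 member probe sets, and 2 of 10 with both a design name and a usable symbol disagreed (NDUFA5 and NDUFB5). Older names of some listed genes were added after the files were seen.

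All members enter the counts and medians, and the results of 1 of them are not reported here. Otherwise per-heart signals are given for those with the 10 largest changes, the 5 lowest p-values, groups that do not overlap or a core role, with others as examples. Members and lists were chosen with earlier results of these data known. Precision is limited by the number of arrays, of which 36.0% to 39.7% of probe sets were Present. Alternatives were other scalings, an offset of 32, a floor of 100, other filters, variance models, array weights, other probe set and name rules, and leaving out each animal. No genome or sequence table was used here.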

Additional observations from a re-analysis of the deposited data

Results flagged for a closer look

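One subunit gene had a heart that stood far from the others of its group. NDUFB5 had a signal of 4255 in intact animal 14, above the 2659, 2705 and 2811 of intact animals 11, 12 and 13, with 2841 and 2174 in block animals 2 and 8. On the log2 scale the gap to the nearest intact heart was 0.882 of the group's range, beyond Dixon's 95% critical value for 4 samples. It was the sole flag among 36 intact groups examined, where chance flags about 1 in 20, and groups of 2 hearts were not examined. The cause was not tested.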

How the results depend on the processing

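No paired analysis was possible because the block and intact groups share no animal number. No subunit gene, assembly factor, biogenesis regulator or subunit of complexes II to V passed the adjusted test in limma under any alternative. The median log2 fold change of the complex I genes stayed between -0.21 (quantile normalization) and -0.06 (annotated symbols, which name 7 of the genes) outside the runs that leave out an animal, and between -0.276 and 0.029 in those runs. It turned positive, to 0.029, without block animal 8, and was -0.276 without block animal 2.

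Subunits lower at an unadjusted p under 0.05 in limma numbered 4 with quantile normalization (NDUFA1, NDUFA2, NDUFAB1 and NDUFS8), where 1051 of 22577 probe sets were lower. They numbered 2 with probe sets averaged per gene, where 714 of all 15311 were lower. They numbered 0 with 75th percentile scaling, the authors' normalized values, no variance trend or array weights, and 0 to 5 with an animal left out. The highest count came without intact animal 12, where 981 of 22577 probe sets were lower, and it was 0 without intact animal 11 or intact animal 13. Subunits higher at that limit numbered 1 with probe sets averaged per gene, where 535 of all 15311 were higher. With quantile normalization 7 subunits lay below all intact hearts and 0 above, and with the authors' normalized values 3 lay below (NDUFAB1, NDUFB5 and NDUFS7) and 0 above. NDUFC2 no longer lay below with 75th percentile scaling or scaling on probe sets Present throughout, which left 2 (NDUFAB1 and NDUFS8) below in each. With an animal left out 3 to 18 lay below and 2 to 11 above. Without block animal 2, 18 lay below, where 22.9% of all probe sets did. Without block animal 8, 11 lay above, where 23.4% of all probe sets did. Without intact animal 12, 10 lay below, and without intact animal 11, 4 lay above. These shares of all probe sets were not counted for intact animals left out or for the other scalings. With annotated symbols 1 lay above.

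The median of the regulators was -0.30 with the offset, -0.25 with the floor, -0.33 with no filter, -0.27 with probe sets averaged per gene and -0.47 with annotated symbols, and -0.42 to -0.34 with an animal left out. The medians of the assembly factors (-0.071 to 0.318) and of complexes II to V (-0.156 to 0.152) were below 0 without block animal 2 and highest without block animal 8. The median of complexes II to V was also below 0 without intact animal 12 (-0.04) or intact animal 14 (-0.03). It was -0.07 with quantile normalization and -0.06 with probe sets averaged per gene.

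Among the genes named by rule, NDUFS3 changed sign with 75th percentile scaling (0.019), with scaling on probe sets Present throughout (0.0071) and without intact animal 11 (0.075) or block animal 8 (0.085), and was -0.095 without block animal 2. NDUFA1 was 0.031 without block animal 8 and -0.558 without block animal 2. NDUFV2 changed sign without block animal 2 (-0.048) and was 0.387 without block animal 8. With probe sets averaged per gene NDUFA9 (-0.0056) and NDUFS1 (-0.071) did, since their dimmer probe sets ran the other way. The causes of the other changes were not tested. The number of arrays limits precision, and the typical 95% interval reached 0.42 on the log2 scale to either side (median).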
